A study of Homo sapiens with 17 samples.

Results

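Toll-like receptors (TLRs) are membrane proteins by which monocytes, macrophages and other myeloid cells recognise microbial molecules. Those of the cell surface bind lipopeptides (TLR2 paired with TLR1 or TLR6), lipopolysaccharide (TLR4 with its co-receptor MD-2, encoded by LY96, and with CD14, which hands the lipid over) or flagellin (TLR5). TLR7, TLR8 and TLR9 lie in endosomes and bind single-stranded RNA (TLR7 and TLR8) or unmethylated CpG DNA (TLR9). Most signal through the adaptor MYD88 to NF-kB and interferon regulatory factors, and CD14 is a classical surface marker of monocytes.

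The 10 genes described here are TLR1, TLR2, TLR4, TLR5, TLR6, TLR7, TLR8, TLR9, CD14 and LY96. They were chosen by name, with earlier results of these data known, and found by their Ensembl identifiers among the 58278 genes of each count file. The gene lists used below were chosen likewise. Counts of calls among them therefore describe sets picked with these data in view. RNA sequencing covered 17 libraries of MOLM13, a human cell line of acute myeloid leukaemia with the MLL-AF9 fusion oncoprotein. In the first experiment 3 libraries came from cells with a CRISPR knockout of HOXA9 (HOXA9_KO), 3 from SAFB knockout cells (SAFB_KO) and 3 from cells given a guide without a target (NT). In the second, 4 libraries of MEIS1 knockout cells (MEIS1_KO) had 4 non-targeting controls of their own (NT_MEIS1ex). HOXA9 and MEIS1 encode homeodomain proteins that leukaemias with MLL fusions express strongly, and SAFB encodes a protein attached to the nuclear matrix. The guides, the time after editing and the origin of replicate libraries (separate cultures, clones or 1 culture) are not stated in the labels. P-values therefore measure only the spread between these libraries, which may be technical. The comparisons ask how the expression of the receptors depends on each of the 3 targeted genes in these cells.

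Between 23.3 and 67.8 M reads per library were assigned to genes. Reads that matched no counted feature made up 6.07% to 18.1%, with the highest shares in NT (16.4% to 18.1%). They were 8.65% to 9.27% in HOXA9_KO and 10.6% to 12.7% in SAFB_KO, so this share separated NT from both knockouts. MEIS1_KO (7.58% to 9.15%) and NT_MEIS1ex (6.07% to 8.47%) overlapped. The part of this difference in the changes below was not tested. Levels are counts per 1 M assigned reads (CPM) after TMM scaling within each experiment, so levels of the 2 experiments are not on 1 scale. Each targeted gene was lower in every library of its own knockout than in every control library, with log2 changes of −0.93 ± 0.05 (HOXA9), −0.89 ± 0.07 (SAFB) and −1.54 ± 0.07 (MEIS1) (± SE). MEIS1 was also lower in HOXA9_KO, at −1.54 ± 0.06, and in SAFB_KO, at −0.31 ± 0.05 (adjusted p 3.2e-06). Of 8 markers of the leukaemia line, 7 lay at or above 10.3 CPM in every library, while KIT lay between 0.156 and 1.28 CPM. They moved both ways, with 4 higher and 3 lower in HOXA9_KO and 3 higher and 1 lower in MEIS1_KO. In SAFB_KO, 3 were higher and 3 lower (1 and 5 with scaling to nuclear protein-coding reads). The list holds HOXA9 and MEIS1, so the lower genes of these 2 knockouts include the target itself. In MEIS1_KO the target was the only lower gene. Of all tested genes, 27.6% were higher and 29.9% lower in HOXA9_KO, 20.2% and 15.3% in SAFB_KO, and 4.97% and 3.84% in MEIS1_KO. FLT3 averaged 321 ± 5.9 CPM in HOXA9_KO, against 675 ± 8.8 CPM in NT, and MPO 93.6 ± 3.4 CPM in HOXA9_KO, against 16.8 ± 1.5 CPM in NT (SD, n = 3). The summed level of 8 erythroid and megakaryocyte markers did not exceed 0.717 CPM in any library. In bulk RNA, more cells of a type and more RNA per cell cannot be told apart.

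Promoters of 3 genes are printed because these genes were called higher in all 3 knockout comparisons and their promoter held a motif of a factor active in myeloid cells or named in the study. The sequences are from RefSeq on GRCh38.p14, on the strand of the gene, from 250 bases before to 50 after the start, with matches in capitals. The TLR8 window is chrX:12906370-12906669 (plus strand), the TLR4 window chr9:117704153-117704452 (plus strand) and the CD14 window chr5:140633126-140633425 (minus strand).
TLR8: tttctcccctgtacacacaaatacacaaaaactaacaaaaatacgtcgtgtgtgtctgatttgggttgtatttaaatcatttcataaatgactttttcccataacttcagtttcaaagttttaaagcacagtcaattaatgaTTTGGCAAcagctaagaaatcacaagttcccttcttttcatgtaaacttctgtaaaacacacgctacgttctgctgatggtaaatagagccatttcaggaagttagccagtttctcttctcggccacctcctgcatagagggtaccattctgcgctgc
TLR4: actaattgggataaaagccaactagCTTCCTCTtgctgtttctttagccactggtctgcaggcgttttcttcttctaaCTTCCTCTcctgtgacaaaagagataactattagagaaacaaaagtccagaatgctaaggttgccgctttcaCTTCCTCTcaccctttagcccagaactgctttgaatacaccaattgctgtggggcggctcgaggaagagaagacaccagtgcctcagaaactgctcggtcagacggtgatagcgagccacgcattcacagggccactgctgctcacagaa
CD14: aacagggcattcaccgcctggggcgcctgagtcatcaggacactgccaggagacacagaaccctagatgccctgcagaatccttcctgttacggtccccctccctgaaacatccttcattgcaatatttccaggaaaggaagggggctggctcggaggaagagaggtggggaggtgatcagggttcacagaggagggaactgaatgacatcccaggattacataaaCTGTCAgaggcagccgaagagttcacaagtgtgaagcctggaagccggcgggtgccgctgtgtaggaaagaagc

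The motifs searched on both strands were AGAGGAAG (PU.1), TTGCNNAA (C/EBP), the interferon-stimulated response element, TGACAG (MEIS) and TGATTTAT (HOX-PBX). TLR8 held 1 C/EBP match, at position −108 from the RefSeq start. TLR4 held 3 PU.1 matches, at −225, −172 and −100, and CD14 held 1 MEIS match at −24, all on the opposite strand. The RefSeq start is that of the gene span given below for TLR8, but lies 228 bases inside that span for TLR4 and 526 bases inside it for CD14, so that the matches of these 2 genes also lie within the span. Of the other members in the table, TLR9 held 2 PU.1 matches (its start lies 518 bases inside the span), and TLR2, TLR5 and TLR6 held none of these letters in the window. No promoter window was available for TLR1, which was also called higher in all 3 knockout comparisons, or for TLR7. Among all 35116 promoters of the table, 4.42% held a PU.1 match, 10.5% a C/EBP match, 3.57% an interferon element, 15.8% a MEIS match and 0.846% a HOX-PBX match. A match describes the sequence and does not show binding.

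In HOXA9_KO, 8 of the 10 genes were called higher than in NT at an adjusted p under 0.05 (edgeR quasi-likelihood test, Benjamini-Hochberg over all genes tested) and none lower, while 27.6% of all tested genes were called higher and 29.9% lower. CD14, TLR8, TLR5 and TLR4 had the largest changes, and TLR7 and TLR9 were not called. The median log2 change of the 10 genes was 1.004, against −0.07 over all genes. CD14 and TLR9 passed the filter on low counts only through knockout libraries; of the other 8 genes, 7 were called higher, with a median of 0.93. In 9 of the 10 genes every HOXA9_KO library lay above every NT library, as it did for 29.1% of all genes. Scaling each library by its nuclear protein-coding reads lowered the median log2 change of all genes by 0.25 and turned 5207 genes higher and 5640 lower into 2861 higher and 9293 lower. The same 8 calls held under it.

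TLR8 (ENSG00000101916.11, GRCh38 chrX:12906620-12923169, plus strand), an endosomal receptor for single-stranded RNA, lay at 147, 148 and 151 CPM in HOXA9_KO, against 14.8, 16.01 and 16.9 CPM in NT. The HOXA9_KO libraries were all far above the NT libraries, by 9.39-fold in the fit, with little spread within either group. The log2 change was 3.23 ± 0.05 (adjusted p 4.7e-46). CD14 (ENSG00000170458.13, chr5:140631728-140633701, minus strand) lay at 2.98, 2.86 and 2.51 CPM in HOXA9_KO, against 0.0947, 0.138 and 0.109 CPM in NT. The NT values rest on 5 to 7 reads per library and the HOXA9_KO values on 90 to 93. Its log2 change of 4.60 ± 0.35 (adjusted p 3.3e-16) was the highest of the 10 genes, at a level per kilobase of exon that stayed below those of 6 other members in HOXA9_KO.

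TLR4 (ENSG00000136869.13, chr9:117704175-117724730, plus strand), the lipopolysaccharide receptor, lay at 58.1, 49.3 and 58.0 CPM in HOXA9_KO, against 14.8, 15.7 and 15.1 CPM in NT, a log2 change of 1.86 ± 0.06 (adjusted p 1.5e-30). The groups were far apart. LY96 (ENSG00000154589.6, chr8:73991352-74029087, plus strand), whose protein TLR4 needs to bind the lipid, lay at 8.45, 7.15 and 6.65 CPM in HOXA9_KO, against 4.25, 4.26 and 5.17 CPM in NT. LY96 rose by 0.70 ± 0.13 (adjusted p 4.3e-06), with no overlap between the groups.

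The 3 genes of the lipopeptide receptors rose by 0.64 to 1.08 on the log2 scale. TLR2 (ENSG00000137462.6, chr4:153684070-153705702, plus strand) lay at 125, 119 and 119 CPM in HOXA9_KO, against 56.1, 55.1 and 60.4 CPM in NT (1.08 ± 0.04, adjusted p 1.7e-28). Its partners TLR1 (ENSG00000174125.7, chr4:38790677-38856817, minus strand) and TLR6 (ENSG00000174130.12, chr4:38823715-38856817, minus strand) rose by 0.78 ± 0.06 and 0.64 ± 0.05 (adjusted p 2.7e-17 and 1.3e-14). TLR1 lay at 41.0, 39.6 and 39.9 CPM in HOXA9_KO, against 23.5, 23.9 and 22.9 CPM in NT, and TLR6 at 41.1, 40.6 and 45.5 CPM, against 28.1, 26.4 and 27.3 CPM. These neighbouring genes share 57 exon bases, and 5.33% of the 50-base windows of TLR1 also occur in TLR6, so a small part of their reads could be assigned to either or to none.

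TLR5 (ENSG00000187554.11, chr1:223109406-223143282, minus strand), the flagellin receptor, lay low, at 2.12, 1.77 and 2.68 CPM in HOXA9_KO, against 0.338, 0.414 and 0.739 CPM in NT (2.19 ± 0.28, adjusted p 2.7e-09). All HOXA9_KO libraries were above all NT libraries. TLR7 (ENSG00000196664.4, chrX:12867083-12890380, plus strand), the neighbour of TLR8 and like it a sensor of single-stranded RNA, lay at 3.68, 2.30 and 2.41 CPM in HOXA9_KO, against 3.02, 2.64 and 2.59 CPM in NT. The groups overlapped, and the log2 change was 0.01 ± 0.19 (adjusted p 0.973). TLR9 (ENSG00000239732.3, chr3:52221080-52226163, minus strand) lay at 0.464, 0.373 and 0.730 CPM in HOXA9_KO, against 0.216, 0.257 and 0.369 CPM in NT. All HOXA9_KO libraries were just above all NT libraries, but its 0.93 ± 0.47 was not called (adjusted p 0.0893). Of its exon bases, 86.3% also belong to the gene AC097637.1 on the same strand, which had 0 to 3 reads per library, so reads of TLR9 that were left out as ambiguous could make its level too low.

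**Figure D1:**
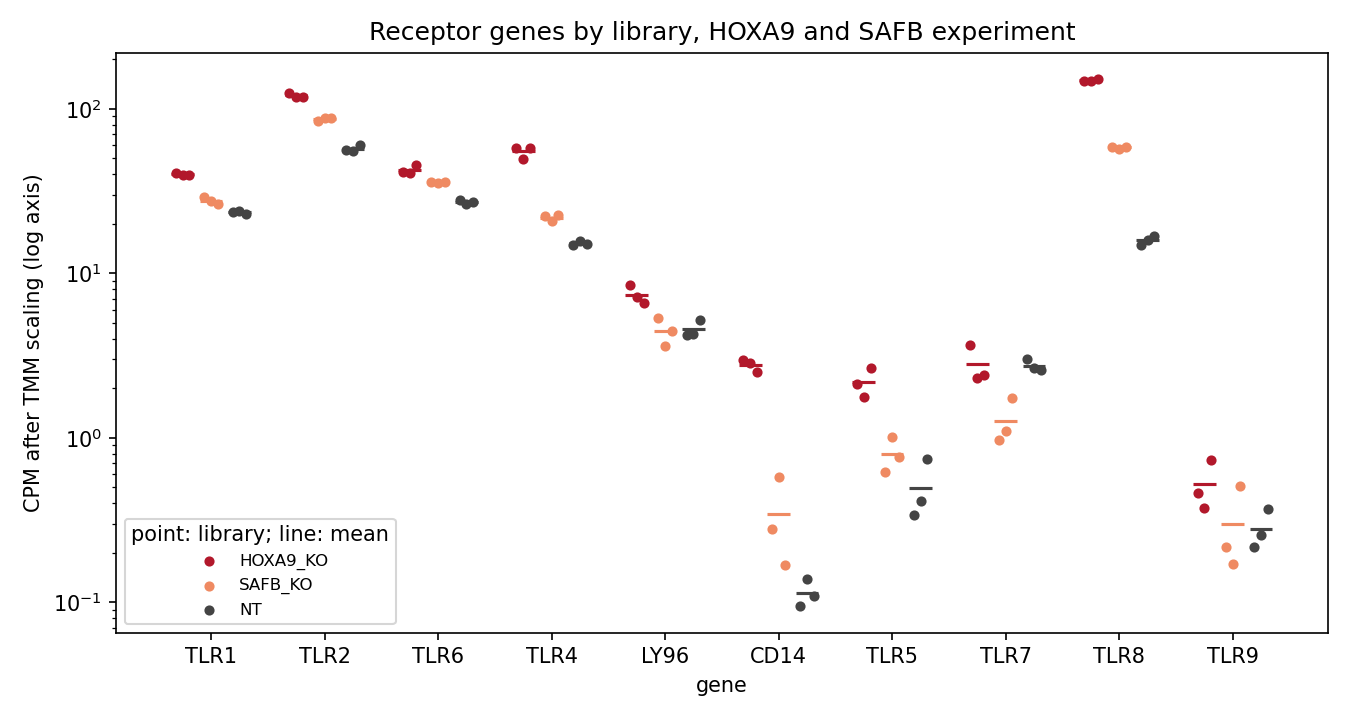
CPM after TMM scaling (log axis) of the 10 genes in each library (points) of HOXA9_KO, SAFB_KO and NT, with the mean of each group as a line. TLR8 lies at 147 to 151 CPM in HOXA9_KO, 57.2 to 59.0 CPM in SAFB_KO and 14.8 to 16.9 CPM in NT, while TLR7 is lowest in SAFB_KO.

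In SAFB_KO, 6 of the 10 genes were called higher than in NT and 1, TLR7, was called lower, beside 20.2% of all genes higher and 15.3% lower. The median log2 change was 0.46, against −0.02 over all genes. Of the 8 genes that passed the filter through the NT libraries alone, 5 were called higher and 1 lower. Scaling to nuclear protein-coding counts lowered the median of all genes by 0.14 and turned 3812 genes higher and 2886 lower into 1712 higher and 5535 lower. TLR8 lay at 58.7, 57.2 and 59.0 CPM in SAFB_KO, against the NT values above, a log2 change of 1.88 ± 0.05 (adjusted p 1.5e-34) that was the largest of the 10 genes. TLR2 lay at 84.1, 87.8 and 87.8 CPM in SAFB_KO (0.60 ± 0.04, adjusted p 1.8e-17) and TLR4 at 22.3, 20.7 and 22.6 CPM (0.52 ± 0.06, adjusted p 4.0e-09). Both were above NT in every library.

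TLR6 lay at 36.0, 35.4 and 36.2 CPM in SAFB_KO (0.39 ± 0.05, adjusted p 5.9e-08) and TLR1 at 29.03, 27.5 and 26.5 CPM (0.24 ± 0.06, adjusted p 7.0e-04). The call of TLR1 was lost when libraries were scaled to nuclear protein-coding counts (0.10, adjusted p 0.167). CD14 lay at 0.280, 0.579 and 0.170 CPM in SAFB_KO, on 6 to 27 reads per library. Its 1.66 ± 0.45 (adjusted p 0.00264) depended on SAFB_KO replicate 2, without which it was 0.98 and not called (adjusted p 0.167). TLR5 lay at 0.622, 1.01 and 0.764 CPM in SAFB_KO and overlapped NT. Its 0.75 ± 0.31 just missed the threshold (adjusted p 0.0512), which it passed without NT replicate 3 (1.12, adjusted p 0.00753) and without SAFB_KO replicate 1 (0.90, adjusted p 0.0355). LY96 (5.35, 3.62 and 4.44 CPM in SAFB_KO) and TLR9 (0.218, 0.171 and 0.509 CPM) overlapped NT and were not called, at −0.04 ± 0.13 and 0.09 ± 0.50 (adjusted p 0.855 and 0.909).

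TLR7 went the other way, at 0.964, 1.09 and 1.75 CPM in SAFB_KO, all below the NT libraries. Its log2 change was −1.12 ± 0.20 (adjusted p 1.4e-05), on 31 to 62 reads per SAFB_KO library. Within 1 experiment, the neighbouring genes TLR7 and TLR8 thus had changes of opposite sign in SAFB_KO. Genes of the interferon response were lower in both knockouts than in NT. Of 25 listed genes, 25 were called lower in HOXA9_KO (29.9% of all tested genes) and 25 in SAFB_KO (15.3%). In MEIS1_KO, 4 of 24 tested were called higher than in NT_MEIS1ex (4.97% of all tested genes). The summed level of the 25 genes was 351 to 372 CPM in HOXA9_KO, 529 to 580 CPM in SAFB_KO and 1874 to 2554 CPM in NT. In the other experiment, on its own scale, it was 736 to 1031 CPM in MEIS1_KO and 512 to 695 CPM in NT_MEIS1ex. NT thus had the highest sum of its experiment, while NT_MEIS1ex had the lower sum of its own. Sums of the 2 experiments are not ranked together, since their scales differ. TLR7 overlapped NT in HOXA9_KO, where that sum was lowest. The part of the interferon genes in the level of TLR7 was not tested.

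**Figure D2:**
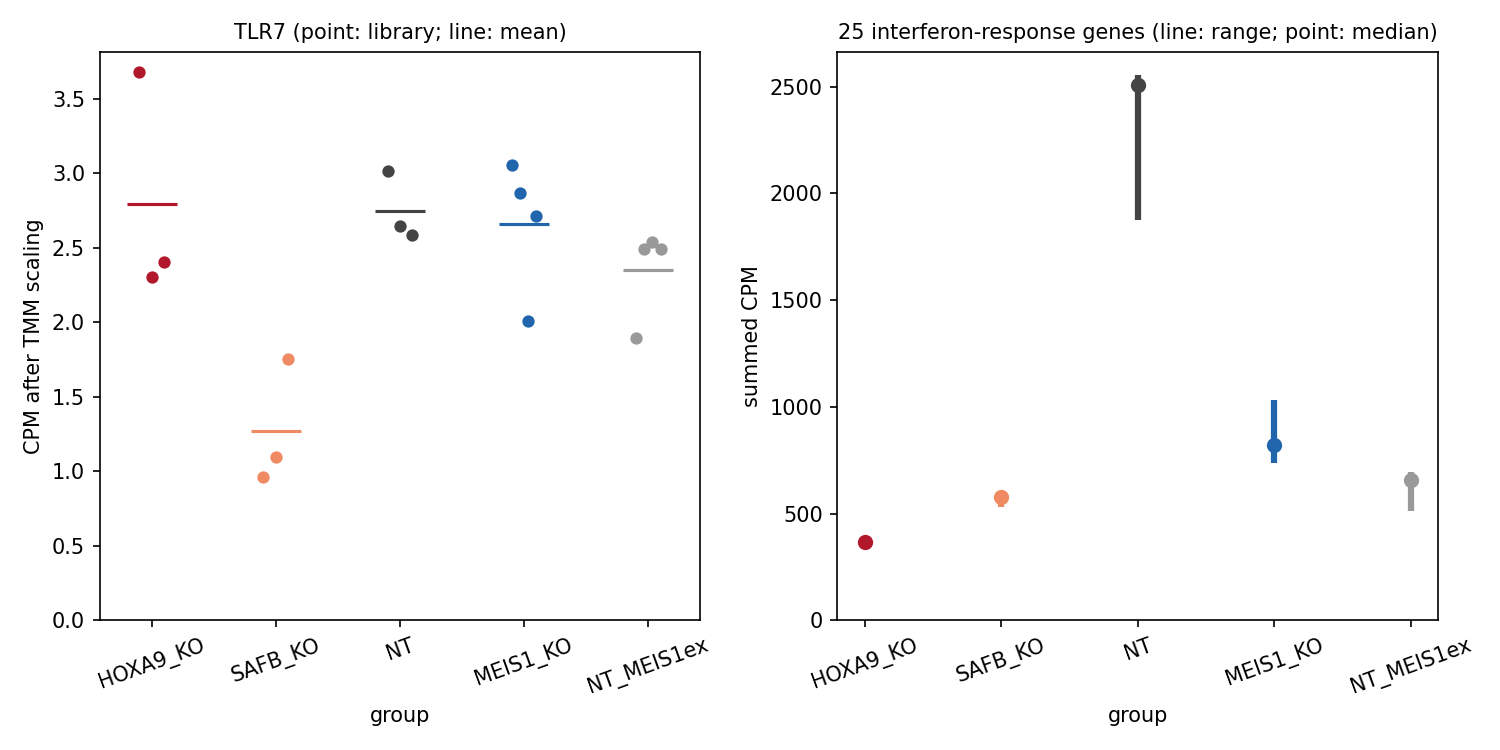
Left, CPM of TLR7 in each library (points) with group means (lines), with SAFB_KO at 0.964 to 1.75 CPM and HOXA9_KO and NT between 2.30 and 3.68 CPM. MEIS1_KO and NT_MEIS1ex, on the scale of their own experiment, lay between 1.89 and 3.05 CPM. Right, the summed CPM of 25 interferon-response genes per group (line from lowest to highest library, point at the median). Within the first experiment it was highest in NT, at 1874 to 2554 CPM.

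HOXA9_KO and SAFB_KO were also compared directly, without the NT libraries in the contrast. In HOXA9_KO, 9 of the 10 genes were called higher than in SAFB_KO and none lower, beside 20.1% of all genes higher and 20.5% lower. Under the protein-coding scaling 3791 genes higher and 3877 lower became 2449 higher and 5845 lower, and the 9 calls held. CD14 and TLR9 did not pass the filter on low counts through the SAFB_KO libraries alone; the other 8 genes were all called higher, with a median of 0.94. CD14 differed most (2.94 ± 0.31, adjusted p 3.3e-11), followed by TLR5 (1.43 ± 0.27, adjusted p 2.3e-05), TLR8 (1.35 ± 0.04, adjusted p 4.2e-31) and TLR4 (1.34 ± 0.06, adjusted p 4.4e-24). TLR7 was higher by 1.13 ± 0.21 (adjusted p 2.0e-05) and LY96 by 0.74 ± 0.13 (adjusted p 6.9e-06). The lipopeptide receptors also differed, with TLR1 at 0.54 ± 0.06, TLR2 at 0.48 ± 0.04 and TLR6 at 0.24 ± 0.05. TLR9 was not called (0.83 ± 0.49, adjusted p 0.183).

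In MEIS1_KO, 5 genes were called higher than in NT_MEIS1ex and none lower, among 9 tested, beside 4.97% of all genes higher and 3.84% lower. Under the protein-coding scaling 783 genes higher and 604 lower became 979 higher and 450 lower, and the 5 calls held. These were TLR1, TLR2, TLR4, TLR8 and CD14, and in each of them every MEIS1_KO library lay above every NT_MEIS1ex library, as for 8.43% of all genes. The median log2 change of the 9 genes was 0.40, against 0.00 over all genes. CD14 passed the filter only with the knockout libraries; of the other 8 genes, 4 were called higher. TLR9 had 1 to 9 reads per library in MEIS1_KO and 4 to 8 in NT_MEIS1ex, and was not tested.

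TLR8 lay at 14.2, 12.1, 15.4 and 13.2 CPM in MEIS1_KO, against 6.96, 9.02, 8.84 and 7.65 CPM in NT_MEIS1ex (0.76 ± 0.10, adjusted p 1.0e-04). CD14 lay at 0.821, 0.787, 1.15 and 1.25 CPM in MEIS1_KO, against 0.357, 0.330, 0.597 and 0.404 CPM in NT_MEIS1ex (1.23 ± 0.27, adjusted p 0.00729), on 9 to 31 reads per library. Both genes were separated by group. TLR4 lay at 16.9, 17.4, 14.4 and 15.1 CPM in MEIS1_KO, against 8.25, 12.1, 11.003 and 11.1 CPM in NT_MEIS1ex (0.59 ± 0.10, adjusted p 0.00144). TLR2 lay at 80.3, 75.4, 70.5 and 72.0 CPM in MEIS1_KO, against 46.6, 56.4, 54.6 and 53.5 CPM in NT_MEIS1ex (0.50 ± 0.06, adjusted p 7.4e-05). TLR1 lay at 17.1, 15.2, 17.1 and 16.2 CPM in MEIS1_KO, against 11.2, 13.1, 12.9 and 12.7 CPM in NT_MEIS1ex (0.40 ± 0.08, adjusted p 0.00272). NT_MEIS1ex replicate 1 was the lowest control library for TLR1, TLR2, TLR4 and TLR8, and all 4 calls held without it.

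TLR6, which pairs with TLR2 as TLR1 does, overlapped between the groups, at 18.1 to 21.4 CPM in MEIS1_KO and 17.3 to 20.05 CPM in NT_MEIS1ex (0.07 ± 0.07, adjusted p 0.603). TLR5, TLR7 and LY96 also overlapped and were not called. Their log2 changes were 0.30 ± 0.22 (adjusted p 0.458), 0.18 ± 0.16 (adjusted p 0.531) and 0.10 ± 0.15 (adjusted p 0.747).

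**Figure D3:**
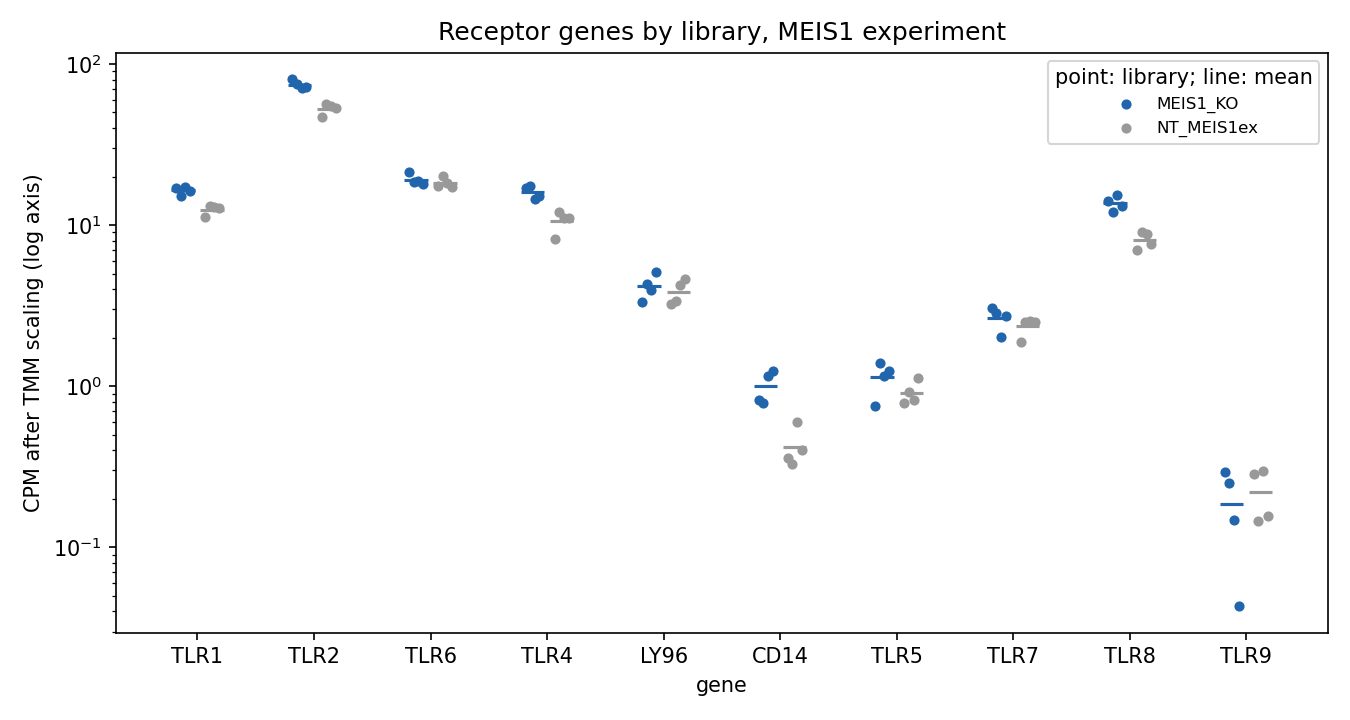
CPM after TMM scaling (log axis) of the 10 genes in each library (points) of MEIS1_KO and NT_MEIS1ex, with group means as lines. The groups are separated for TLR1, TLR2, TLR4, TLR8 and CD14 and overlap for the other 5 genes.

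**Figure D4:**
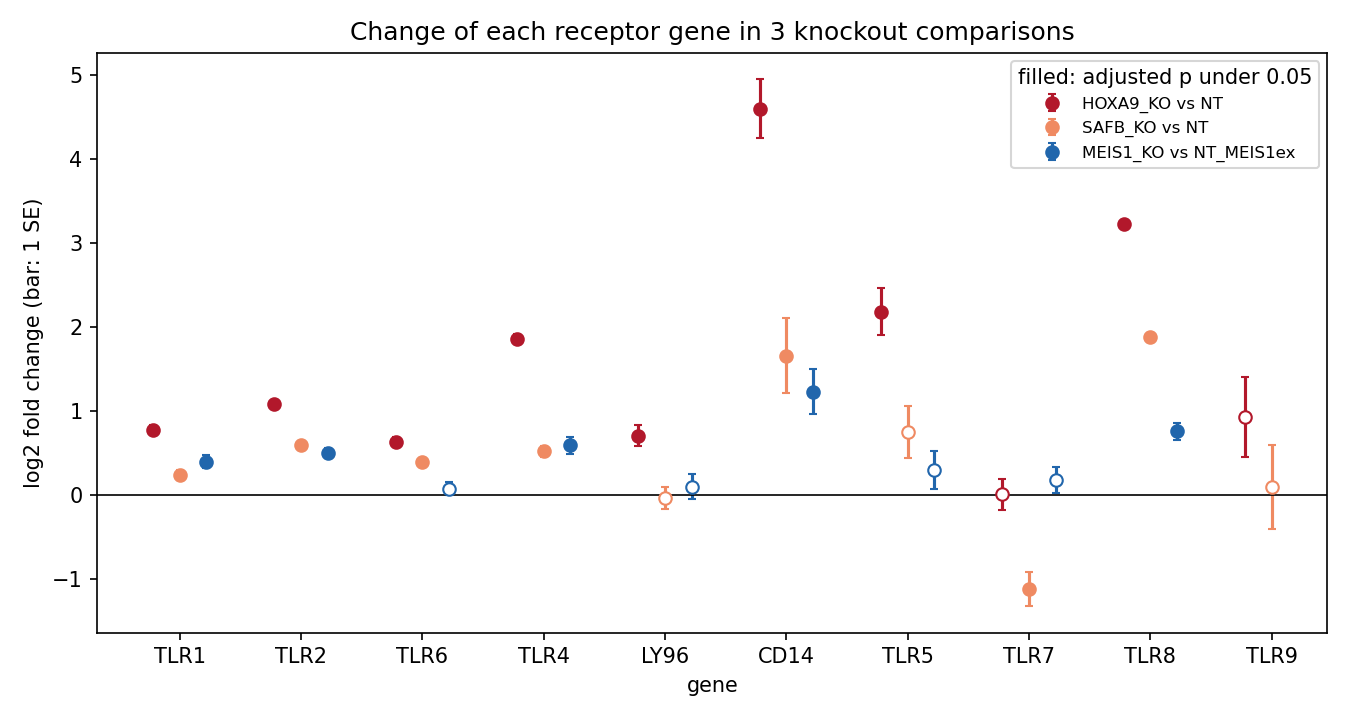
Log2 fold change of each gene (point, with 1 SE) in HOXA9_KO and SAFB_KO against NT and in MEIS1_KO against NT_MEIS1ex, filled where the adjusted p was under 0.05. CD14 has the largest change in HOXA9_KO (4.60) and in MEIS1_KO (1.23), TLR8 has it in SAFB_KO (1.88), and TLR7 in SAFB_KO is the only filled point below 0.

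Whether the effects differed between experiments was tested in a fit of all 17 libraries. HOXA9 and SAFB were targeted only in the first experiment and MEIS1 only in the second. A difference between the HOXA9 or SAFB effect and the MEIS1 effect therefore cannot be told apart from a difference between the experiments. The HOXA9 effect exceeded the MEIS1 effect in 8 of the 10 genes and fell short of it in none (24.5% and 19.7% of all genes), and in 7 of the 8 genes that passed the filter through the controls of each experiment alone. It was larger by 3.41 ± 0.48 for CD14 (adjusted p 3.1e-07), 2.51 ± 0.10 for TLR8 (adjusted p 1.1e-20), 1.93 ± 0.37 for TLR5 (adjusted p 5.6e-05) and 1.31 ± 0.12 for TLR4 (adjusted p 5.3e-11). The differences for TLR2, TLR6, LY96 and TLR1 were 0.62 ± 0.08, 0.60 ± 0.09, 0.65 ± 0.21 and 0.42 ± 0.09. With scaling to nuclear protein-coding counts, which turned 4618 genes higher and 3703 lower into 1867 higher and 7777 lower, those of LY96 and TLR1 were lost (adjusted p 0.172 and 0.373). MEIS1 RNA itself fell by 1.54 in HOXA9_KO, 0.31 in SAFB_KO and 1.54 in MEIS1_KO. TLR7 and TLR9 were not called.

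The SAFB effect exceeded the MEIS1 effect for TLR8, by 1.12 ± 0.10 (adjusted p 3.9e-10), and for TLR6, by 0.32 ± 0.09 (adjusted p 0.0105), beside 12.4% of all genes. It was lower for TLR7, by −1.30 ± 0.27 (adjusted p 6.1e-04), beside 8.49% of all genes. The difference for TLR6 was lost with scaling to nuclear protein-coding counts (0.15, adjusted p 0.271), under which TLR1 was called with a smaller SAFB effect (−0.33, adjusted p 0.0104). For TLR2, TLR4 and CD14, called in both knockouts, the differences were 0.11 ± 0.08, −0.06 ± 0.12 and 0.44 ± 0.52 (adjusted p 0.342, 0.773 and 0.593), which does not show that the effects were alike. The difference for TLR2 turned to −0.07 under the protein-coding scaling, with 612 genes higher and 3496 lower in place of 2330 and 1600.

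Levels of different genes were compared per kilobase of exon. The length counts every annotated exon base over all transcripts of a gene, with 13.272 kb for TLR4 and 4.353 kb for TLR8. Ranks and shares therefore depend on which transcripts the cells use, which was not tested. For TLR9 the length includes the 86.3% of exon bases that also belong to AC097637.1. Reads there may have been left out as ambiguous, so the ranks and shares of TLR9 could be too low. In HOXA9_KO, TLR8 was the most abundant of the 10 genes, with 37.2% of their summed CPM per kilobase, and TLR2 ranked 2 with 25.2%. TLR2 led in the other 4 groups, with 32.2% in SAFB_KO, 32.5% in NT, 42.6% in MEIS1_KO and 39.3% in NT_MEIS1ex. TLR8 ranked 2 in SAFB_KO (25.9%) and 5 in NT (10.8%), MEIS1_KO (9.40%) and NT_MEIS1ex (7.23%). LY96, a short gene of 0.607 kb of exon, ranked 2 in NT, MEIS1_KO and NT_MEIS1ex and 3 in the other groups. TLR4 ranked 6 in every group. The libraries of neighbouring ranks were apart for ranks 1 to 6 in HOXA9_KO and NT, but LY96, TLR1 and TLR6 overlapped in SAFB_KO, TLR1, TLR6 and TLR8 in MEIS1_KO, and TLR6 and TLR1 in NT_MEIS1ex. CD14, TLR5, TLR7 and TLR9 took the last 4 places in every group, with CD14 at rank 7 in HOXA9_KO (1.48 ± 0.13 CPM per kilobase, SD, n = 3) and 0.0603 ± 0.0118 in NT. Of these 4 genes, all were apart in HOXA9_KO and NT_MEIS1ex. Neighbouring ranks overlapped for all 4 in SAFB_KO, for TLR9, TLR5 and CD14 in NT, and for CD14 and TLR7 in MEIS1_KO.

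**Figure D5:**
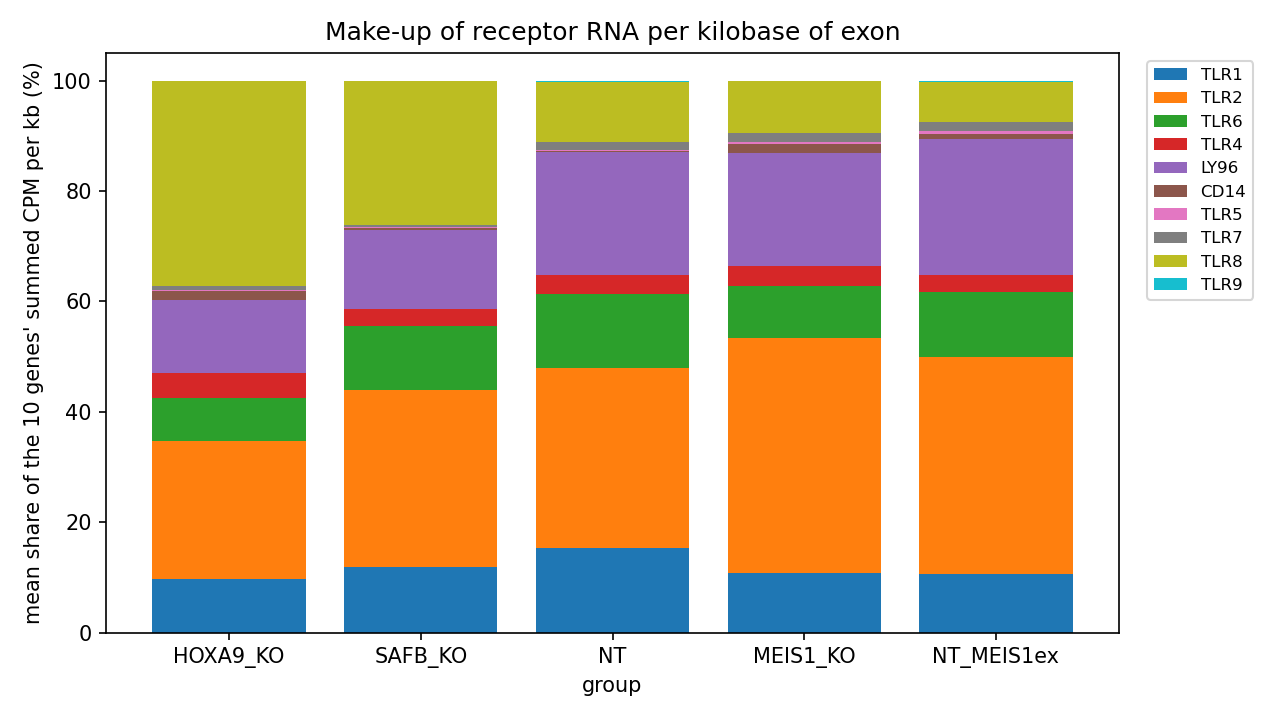
Mean share of each gene in the summed CPM per kilobase of exon of the 10 genes, as stacked bars for the 5 groups. TLR8 takes 37.2% in HOXA9_KO, 25.9% in SAFB_KO and 10.8% in NT, and TLR2 takes between 25.2% and 42.6% in all groups.

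TLR3, the sensor of double-stranded RNA, and TLR10 completed the family. Both were too low to test. TLR3 had 1 to 4 reads per library in HOXA9_KO, 2 to 10 in SAFB_KO and 6 to 26 in NT, and 2 to 6 in either group of the MEIS1 experiment. TLR10 had at most 12 reads in any library.

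Other genes of the pathway were counted in lists by role, chosen with earlier results of these data known. Of all tested genes, 27.6% were called higher and 29.9% lower in HOXA9_KO, 20.2% and 15.3% in SAFB_KO, and 4.97% and 3.84% in MEIS1_KO. These shares stand beside every list count below. Of 10 tested accessory receptors and chaperones, 7 were called higher and 1 lower in HOXA9_KO, 7 higher in SAFB_KO and 4 higher in MEIS1_KO. CD180, a TLR-like surface protein, averaged 194 ± 4.4 CPM in HOXA9_KO and 116 ± 4.4 CPM in SAFB_KO, against 82.2 ± 3.6 CPM in NT (SD, n = 3), and was called in all 3 knockouts (1.24 ± 0.04, 0.50 ± 0.04 and 0.35 ± 0.05). CD36, a scavenger receptor that works with TLR2, rose by 1.62 ± 0.04, 0.62 ± 0.04 and 0.67 ± 0.09 in HOXA9_KO, SAFB_KO and MEIS1_KO.

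Of 19 adaptors and kinases, 12 were called higher and none lower in HOXA9_KO. In SAFB_KO, 4 were higher, a share near the 20.2% of all tested genes, and 1 was lower. In MEIS1_KO, 3 were higher. The median log2 changes in HOXA9_KO, SAFB_KO and MEIS1_KO were 0.20, 0.03 and 0.04. With scaling to nuclear protein-coding counts, tried on the lists after seeing the data, 6 were higher and 6 lower in HOXA9_KO and 1 higher and 5 lower in SAFB_KO, with medians of −0.05 and −0.11. Under it the accessory receptors gave 5 higher and 4 lower in HOXA9_KO and 4 higher and 1 lower in SAFB_KO. TAB2, a scaffold of the TAK1 kinase, rose by 0.73 ± 0.05 in HOXA9_KO and 0.34 ± 0.05 in SAFB_KO. IRAK1, a kinase recruited by MYD88, rose by 0.47 ± 0.04 in HOXA9_KO and was not called in SAFB_KO (0.01 ± 0.04, adjusted p 0.805), where it was lower under the protein-coding scaling (−0.12, adjusted p 0.0051). Among 12 inhibitors of the pathway, 6 were higher and 2 lower in HOXA9_KO and 4 higher and 2 lower in SAFB_KO. In MEIS1_KO none of the 11 tested was higher and 2 were lower. The protein-coding scaling gave 5 higher and 3 lower in HOXA9_KO, 4 higher and 3 lower in SAFB_KO and 1 lower in MEIS1_KO. The ubiquitin-editing enzyme TNFAIP3 and the repressor ATF3 were the 2 lower genes in each knockout, and fell by 0.92 ± 0.06 and 1.64 ± 0.12 in HOXA9_KO. TOLLIP (1.21 ± 0.06) and IRAK3 (0.68 ± 0.03) were among the higher genes in HOXA9_KO.

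Of 12 transcription factors that act below TLRs, 9 were higher and 1 lower in HOXA9_KO, 8 higher and 1 lower in SAFB_KO and 1 higher in MEIS1_KO. The protein-coding scaling gave 6 higher and 2 lower in HOXA9_KO and 5 higher and 1 lower in SAFB_KO. IRF5, which acts downstream of MYD88, averaged 198 ± 4.6 CPM in HOXA9_KO and 118 ± 1.9 CPM in SAFB_KO, against 71.6 ± 2.5 CPM in NT (SD, n = 3), and was the factor called in MEIS1_KO too (0.48 ± 0.05, adjusted p 5.7e-06). SPI1, which encodes PU.1, rose by 1.27 ± 0.04 in HOXA9_KO and 0.51 ± 0.04 in SAFB_KO and was not called in MEIS1_KO (0.08 ± 0.07, adjusted p 0.575). The lower gene was IRF7 (−2.07 ± 0.06 in HOXA9_KO and −1.64 ± 0.06 in SAFB_KO), which is also a member of the interferon-response list.

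Genes that TLR signals induce moved both ways. Of 15 tested, 8 were higher and 4 lower in HOXA9_KO and 7 higher and 4 lower in SAFB_KO, and of 14 tested, 6 were higher and 1 lower in MEIS1_KO. IL1B, a pro-inflammatory cytokine, averaged 12.1 ± 0.73 CPM in HOXA9_KO and 5.97 ± 0.33 CPM in SAFB_KO, against 3.07 ± 0.44 CPM in NT (SD, n = 3), and rose in MEIS1_KO (0.96 ± 0.13). TNF rose by 1.44 ± 0.07 in HOXA9_KO and 0.28 ± 0.08 in SAFB_KO, where the call was lost with the protein-coding scaling (0.14, adjusted p 0.145). That scaling left 8 of these genes higher and 4 lower in HOXA9_KO and 3 higher and 4 lower in SAFB_KO. The chemokine CCL5 fell by 0.99 ± 0.05, 0.35 ± 0.05 and 0.37 ± 0.07 in HOXA9_KO, SAFB_KO and MEIS1_KO. Of 7 endolysosomal proteases, some of which cleave endosomal TLRs, 5 were higher in HOXA9_KO, 3 in SAFB_KO and 2 in MEIS1_KO. CTSD rose most in HOXA9_KO (2.19 ± 0.04). With the protein-coding scaling, 5 proteases were higher in HOXA9_KO and 3 in MEIS1_KO. In SAFB_KO it gave 3 higher and 1 lower, with a median of −0.07. Of 11 other receptors and sensors of bacteria, 8 were higher and 3 lower in HOXA9_KO, 6 higher and 2 lower in SAFB_KO and 4 higher in MEIS1_KO. That scaling gave 7 higher and 4 lower in HOXA9_KO, 5 higher and 3 lower in SAFB_KO and 5 higher in MEIS1_KO. Of these sensors NAIP, an inflammasome sensor of flagellin, rose by 1.95 ± 0.05, 1.37 ± 0.05 and 0.82 ± 0.07 in HOXA9_KO, SAFB_KO and MEIS1_KO.

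Monocyte markers moved with the receptors. Of 10 tested markers, 10 were called higher in HOXA9_KO and 10 in SAFB_KO (9 with the protein-coding scaling), and 7 of 8 tested in MEIS1_KO. Their summed level, mostly LYZ, was 29412 to 32348 CPM in HOXA9_KO, 12952 to 14622 CPM in SAFB_KO and 4529 to 4627 CPM in NT, and 7054 to 7445 CPM in MEIS1_KO, against 3339 to 5036 CPM in NT_MEIS1ex. The summed level of 8 lymphoid markers, mostly NKG7, was 10.4 to 12.2 CPM in HOXA9_KO, 11.4 to 14.2 CPM in SAFB_KO and 14.1 to 17.3 CPM in NT, and 23.4 to 26.1 CPM in MEIS1_KO, against 19.1 to 22.1 CPM in NT_MEIS1ex. CD3D and NKG7 were called lower in HOXA9_KO and CD3D in SAFB_KO, where NKG7 was called lower with the protein-coding scaling (−0.33, adjusted p 0.00583), and NKG7 was called higher in MEIS1_KO. CD3D averaged 0.0920 ± 0.036 CPM in HOXA9_KO and 0.415 ± 0.026 CPM in SAFB_KO, against 0.874 ± 0.30 CPM in NT (SD, n = 3), and CD3E, CD3G and MS4A1 did not exceed 0.0861 CPM in any library. The part of either marker list in the changes of the receptors was not tested.

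The genes whose pattern was most like that of a receptor were found by Pearson's r over the 17 libraries, on log2 CPM minus the mean of the controls of the same experiment, among 11819 genes (11820 for TLR5 and CD14). These values describe libraries that share controls and group means, and carry no test. TLR8 was most like SORL1 (r 0.998), ITGAM (0.996) and PECAM1 (0.996). TLR2 was most like ADGRL3 (0.991), TLR4 like IDH1 (0.992) and TLR1 like DPYD (0.975). CD14 was most like GABARAPL1 (0.979), TLR5 like MIEN1 (0.967) and TLR6 like EIF4EBP2 (0.980). TLR7 and LY96 had no gene as close, with DCP1A at 0.869 and PALD1 at 0.903.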

How the data were processed

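Total RNA had been depleted of ribosomal RNA, made into strand-marked libraries and sequenced as read pairs, per the labels' protocols. Per the submitters' processing notes, tools included STAR 2.7.10a, HTSeq 1.99.2, Trim Galore and bedtools, with genome hg38. The sources used here give neither the annotation release nor the strand setting of the counting. Values deposited for every library were raw whole-number counts per gene made by the authors, including the files whose layout was recorded as other, all checked to be whole. Rows for reads that matched no counted feature (6.07% to 18.1%) stayed out of library sizes and tests. Coordinates and exon lengths came from GENCODE 29, matched by identifier without version.

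Counts were filtered (filterByExpr, 10 counts), scaled by TMM and tested with edgeR 4.0.16 (R 4.3.3) by the robust quasi-likelihood F test, with Benjamini-Hochberg adjustment over 18876 genes in the HOXA9 and SAFB experiment (9 libraries), 15744 in the MEIS1 experiment (8) and 18836 in the fit of all 17. Calls needed an adjusted p under 0.05. The SE is the log2 change divided by the root of F. The named genes were all 10 members, the targeted genes, TLR3, TLR10, up to 6 members per list by smallest p and the 3 genes most like each member; some are left out where a count is given. Members and lists were chosen with earlier results of these data known. Alternatives used RLE factors, scaling to nuclear protein-coding counts, other filters, DESeq2 1.42.0, limma-voom (limma 3.58.1), a replicate block, other libraries in the fit and each library left out; the lists were recounted under the first 2, a choice made after seeing the data. Simulated counts were used to test the fits. The result of 1 lymphoid marker is not reported here.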

Additional observations from a re-analysis of the deposited data

Results flagged for a closer look

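Among 20 sets of 4 libraries (10 genes in MEIS1_KO and in NT_MEIS1ex), 1 held a library far from the others for its range: TLR7 in NT_MEIS1ex, where replicate 1 lay at 1.89 CPM and the other 3 between 2.49 and 2.54 CPM. Chance flags about 1 in 20 such sets. TLR7 was not called in MEIS1_KO with or without that library.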

How the results depend on the processing

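Calls of the 10 genes kept their direction and their side of the threshold in 1085 of 1114 comparisons of a gene's result with an alternative, and 18 reversed, none of them called before or after. The cause of the changes was not tested. All genes called in MEIS1_KO numbered 1387, against 2144 with all 17 libraries in the fit and 751 to 1772 with 1 library left out, the lowest counts being 751 without MEIS1_KO replicate 3, 873 without MEIS1_KO replicate 2 and 884 without NT_MEIS1ex replicate 4. In HOXA9_KO against NT, TLR7 (0.01) turned to −0.24 with scaling to nuclear protein-coding counts, −0.052 with a mean of at least 2 CPM and −0.039 with limma-voom, and ran from −0.23 to 0.13 with 1 library left out. In SAFB_KO against NT, TLR9 (0.09) turned to −0.045 with that scaling and −0.00081 with limma-voom, and ran from −0.52 to 0.41 with 1 library left out, as LY96 did from −0.18 to 0.11. LY96 in MEIS1_KO ran from −0.0087 to 0.20. The SAFB effect minus the MEIS1 effect was −0.067 for TLR2 with that scaling, and with 1 library left out it ran from −0.12 to 0.037 for TLR4, −0.31 to 0.62 for TLR9, −0.24 to 0.76 for CD14 and −0.26 to 0.029 for LY96. HOXA9_KO minus SAFB_KO was called for TLR9 without SAFB_KO replicate 3 (1.46, adjusted p 0.043).

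Libraries with the same replicate number had correlations of −0.15 to 0.09, which cannot exclude a pairing, and the labels do not state one. The fit with a replicate block is therefore a description. It called TLR5 in SAFB_KO (0.76, adjusted p 0.0477), as RLE size factors did (0.76, adjusted p 0.0457). Over all alternatives the adjusted p of TLR5 in SAFB_KO ranged from 0.00753 to 0.272. The adjusted p of CD14 in SAFB_KO ranged from 4.5e-04 to 0.167. CD14 in MEIS1_KO had no adjusted p in DESeq2. Depth limits CD14, TLR5, TLR7 and TLR9, which rest on few reads per library.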
